A study of Sus scrofa with 8 samples.

Results

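Genes of fatty acid uptake and oxidation were read in the right ventricle of pigs (Sus scrofa) that carry 1 disrupted copy of PKP2, a heterozygous knockout, and in that of wild-type pigs. They are 32 genes named by symbol, from uptake through the carnitine shuttle and beta-oxidation to transcripts that respond to the nuclear receptor PPAR. Of these, 31 were in the deposited table of 30550 genes, and the symbol ACOT2 was not. RNA sequencing gave 4 libraries of the knockout genotype (PKP2_het) and 4 of wild type (WT). PKP2 encodes plakophilin 2, a desmosome protein of heart muscle, and the series title calls these pigs an arrhythmogenic cardiomyopathy model. The labels give no targeted site, founder line, treatment, age, sex, litter, feeding state or time of sampling, and they do not say that each library is a separate animal. The p-values therefore measure spread among libraries, which may be technical. The labels name cardiomyocytes as the cell type while the protocol describes tissue.

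The heart draws most of its energy from long-chain fatty acids. CD36 and fatty acid transport proteins bring them across the cell membrane, FABP3 carries them in the cytosol, and acyl-CoA synthetases such as ACSL1 couple them to coenzyme A. CPT1 on the outer mitochondrial membrane then makes acylcarnitine, SLC25A20 carries it inward, and CPT2 restores the acyl-CoA, which beta-oxidation shortens in repeated rounds of 4 reactions. Malonyl-CoA, made in heart by ACACB and removed by MLYCD, inhibits CPT1. Fatty acids also activate PPAR receptors, which raise transcripts such as PDK4, CPT1A and ANGPTL4, and this response is known to follow feeding, fasting and hormones.

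Fragments assigned to genes numbered 25188263 to 31313628 per PKP2_het library and 23637697 to 27872031 per WT library. PKP2 itself averaged 39.2 ± 9.99 FPKM in the PKP2_het libraries and 62.2 ± 8.17 FPKM in the WT libraries (SD, n = 4 each; two-sided exact permutation p = 0.0286, the smallest that 70 relabellings can give). In limma, the test used for all other genes, its log2 fold change was -0.69 ± 0.20 (SE) with an adjusted p of 0.164, so PKP2 was not called. FPKM is the number of fragments scaled by gene length and library. PKP2_het replicate 3 stood apart from the other libraries. Its mitochondrially encoded transcripts made up 52.1% of fragments, against 21.1% to 37.6% in the other 7 libraries, and it was the lowest PKP2_het library in 44.6% of all genes tested. Larger moves without it are given beside the results, and the plot of fold changes shows each tested member with and without it. The defining cardiomyocyte markers were abundant in every library, with TNNC1 at 7778 to 12141 FPKM in PKP2_het and 7552 to 9662 FPKM in WT. Endothelial, fibroblast and smooth muscle markers were also present, so the tissue was not of cardiomyocytes alone.

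None of the member genes changed past the genome-wide threshold in either direction. A test needed 1 FPKM or more in 4 or more of the 8 libraries, which 30 of the 31 reached and UCP3 did not. In limma, 0 of 30 had a Benjamini-Hochberg adjusted p under 0.05, against 1.86% of the 10757 genes tested, and voom on fragments recovered from the FPKM values also called 0. An unadjusted p under 0.05 was found for 3 members toward lower levels (all genes: 5.96%) and for 0 toward higher levels (all genes: 6.88%). These 3 were CPT1A, CPT2 and ANGPTL4. Between groups, the libraries of PKP2_het and WT overlapped for every tested member (all genes separated: 4.33% toward lower and 4.86% toward higher levels). At these shares few of 30 genes would be separated, so this count does not set the members apart from other genes.

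More members had values below WT than above it, without a call for any of them. The log2 fold change was negative for 23 of 30 members, against 54.3% of all genes, and its median was -0.18, against -0.02 over all genes. Without PKP2_het replicate 3 it was negative for 20 of 30 members, against 48.5% of all genes, and the median was -0.0733, against 0.00672 over all genes. In that fit 0 members were called, against 2.92% of all genes, and 2 (CPT1A and ANGPTL4) had an unadjusted p under 0.05, both lower; of all genes 7.48% had such a p toward lower and 9.08% toward higher levels. Rescaling the libraries to equal FPKM sums moved the median of all genes to -0.23, and all 30 members then had a negative value. In bulk tissue, fewer cells of a type and less RNA per cell cannot be told apart.

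**Figure D1:**
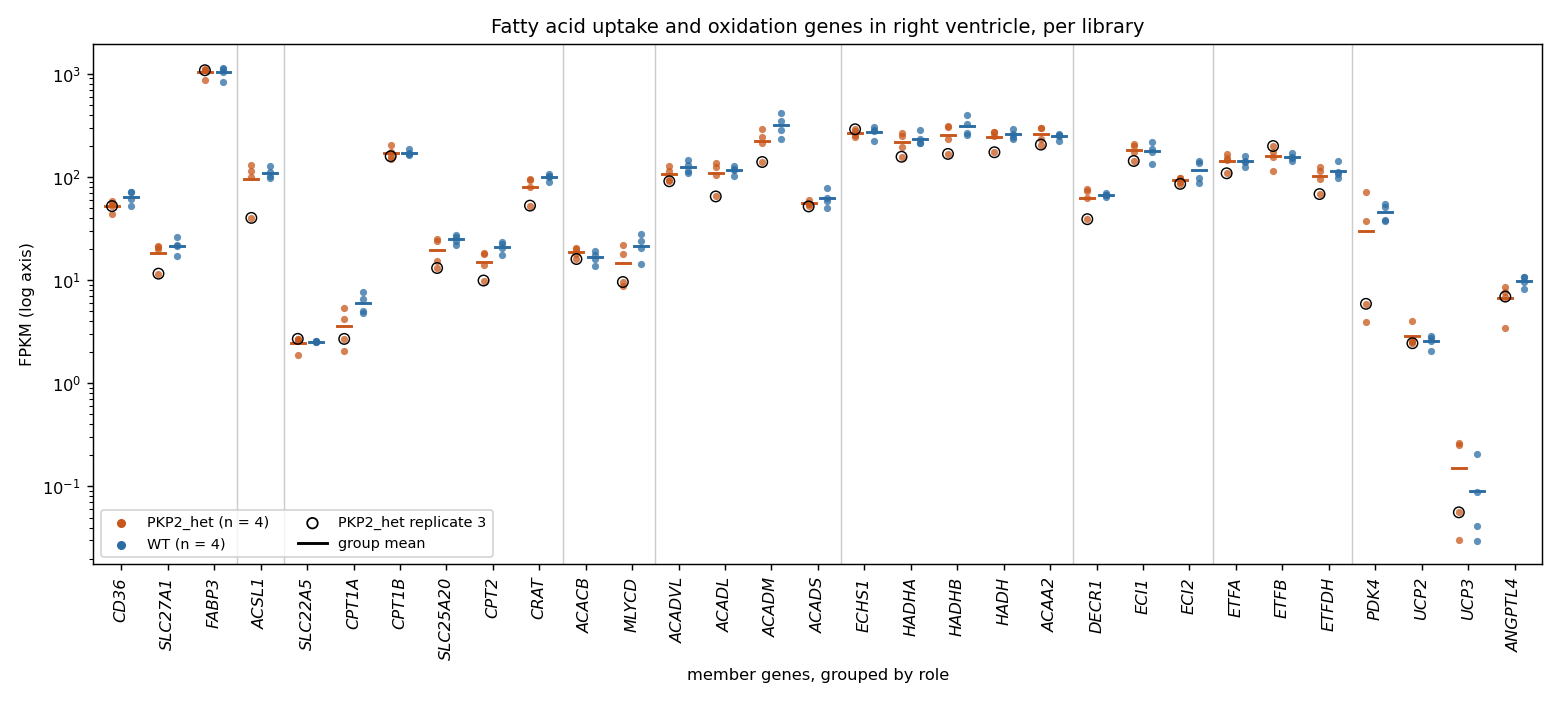
FPKM of each of the 31 member genes (log axis) in the 4 PKP2_het libraries (left of each pair) and the 4 WT libraries (right), with the group means as lines and PKP2_het replicate 3 circled. The 2 groups overlap for each gene, and FABP3 is the most abundant at up to 1142 FPKM.

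**Figure D2:**
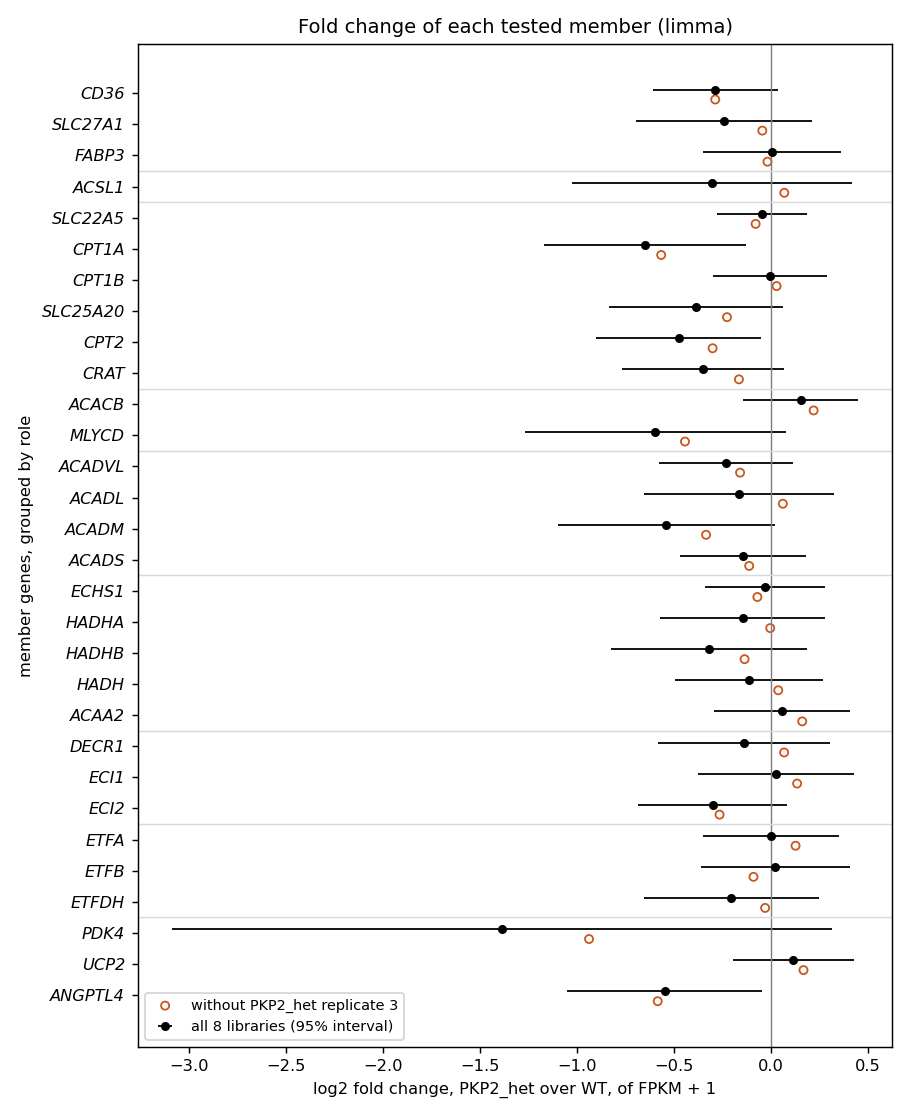
Log2 fold change of PKP2_het over WT on the log2(FPKM + 1) scale for the 30 tested members, with 95% intervals (all 8 libraries, black) and the value without PKP2_het replicate 3 (open circles). CPT1A, CPT2 and ANGPTL4 have intervals below 0 before adjustment, and the interval of PDK4 is the widest, from -3.09 to 0.32.

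Levels of the members spanned a wide range that was shared by both groups. FABP3, the fatty acid binding protein of heart muscle, was the highest, and 16 of 31 members averaged over 100 FPKM in WT. The next highest in WT were, by level, ACADM, HADHB, ECHS1 and HADH, which act at different steps of beta-oxidation. SLC22A5, UCP2 and UCP3 were the lowest, and UCP3 was supported by few fragments: 16, 2, 3 and 16 fragments in PKP2_het replicates 1 to 4, against 10, 6, 3 and 2 in WT replicates 1 to 4. All 31 genes had the same start and end in RefSeq's Sscrofa11.1 annotation as in the deposited table.

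No gene of uptake or activation was called. FABP3 (gene 399532, chr6:87943003-87950708) had 1087, 864, 1079 and 1097 FPKM in PKP2_het replicates 1 to 4, against 1116, 1027, 833 and 1142 FPKM in WT replicates 1 to 4. PKP2_het replicate 2 and WT replicate 3 were the low libraries, and the log2 fold change was 0.01 ± 0.16 (SE), with a 95% interval of -0.35 to 0.36. CD36, the membrane receptor for long-chain fatty acids, had 54.96, 43.5, 52.03 and 58.8 FPKM in PKP2_het replicates 1 to 4, against 71.2, 71.2, 52.4 and 61.6 FPKM in WT replicates 1 to 4. Every PKP2_het library lay below WT replicates 1, 2 and 4, while WT replicate 3 fell among them; the log2 fold change was -0.29 ± 0.14 (SE) with a limma adjusted p of 0.451. CD36 is also made by capillary endothelium. Of the 10 endothelial markers listed, 9 had a negative log2 fold change (all genes: 54.3%) and 0 were called (all genes: 1.86%). These markers vary together between libraries and do not count as independent observations. Their summed level was 242 to 505 FPKM in PKP2_het and 285 to 554 FPKM in WT, and the part of this in the CD36 values was not tested. SLC27A1, a fatty acid transport protein, averaged 18.4 ± 4.60 FPKM in PKP2_het libraries and 21.6 ± 3.72 FPKM in WT libraries (SD, n = 4 each), and -0.24 on the log2 scale became -0.04 without PKP2_het replicate 3. ACSL1, the main long-chain acyl-CoA synthetase of heart, had 114, 99.8, 39.99 and 129.5 FPKM in PKP2_het replicates 1 to 4, against 98.02, 110.5, 101 and 126 FPKM in WT replicates 1 to 4. One library, PKP2_het replicate 3, was far below the rest, and without it the log2 fold change was 0.07 in place of -0.30.

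No gene of the carnitine shuttle was called. All 6 shuttle members had a negative log2 fold change (all genes: 54.3%), between -0.65 for CPT1A and -0.01 for CPT1B. CPT1B and SLC22A5, at -0.04, were within 1 SE of 0. Without PKP2_het replicate 3 the value was negative for 5 of 6 (all genes: 48.5%), with CPT1B at 0.03. CPT1A and CPT2 reached an unadjusted limma p under 0.05 with all libraries. CPT1A, the liver-type form of the rate-limiting transferase (gene 399527, chr2:4250642-4293914), had 5.36, 2.06, 2.69 and 4.23 FPKM in PKP2_het replicates 1 to 4, against 6.55, 7.65, 4.83 and 4.97 FPKM in WT replicates 1 to 4. PKP2_het replicates 2, 3 and 4 were below every WT library, with 2 and 3 the lowest, and replicate 1 lay inside the WT range. The mean was 59.7% of WT, the log2 fold change -0.65 ± 0.23 (SE) and the limma adjusted p 0.260, or 0.298 without PKP2_het replicate 3. These values rest on 260 to 648 fragments per PKP2_het library and 612 to 1000 per WT library.

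CPT1B, the muscle form that makes up most CPT1 transcript in this tissue (gene 399528, chr5:155552-163536), had 175, 149.7, 158 and 203 FPKM in PKP2_het replicates 1 to 4, against 169, 168, 163 and 185 FPKM in WT replicates 1 to 4. Its log2 fold change was -0.01 ± 0.13 (SE) with a 95% interval of -0.30 to 0.29. CPT1A as a percentage of CPT1A plus CPT1B FPKM was 2.97, 1.36, 1.67 and 2.04 in PKP2_het replicates 1 to 4, against 3.74, 4.36, 2.87 and 2.62 in WT replicates 1 to 4. The highest PKP2_het library exceeded the lower pair of WT libraries, so this share overlapped between groups.

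CPT2, the inner-membrane transferase (gene 100519491, chr6:159038129-159061327), had 18.05, 13.9, 9.89 and 18.3 FPKM in PKP2_het replicates 1 to 4, against 17.4, 22.4, 20.4 and 23.1 FPKM in WT replicates 1 to 4. Replicates 2 and 3 of PKP2_het were again the low ones, and replicates 1 and 4 lay between WT replicates 1 and 3. The log2 fold change was -0.47 ± 0.19 (SE) with a limma adjusted p of 0.322, or -0.30 and 0.302 without PKP2_het replicate 3. SLC25A20, the carnitine-acylcarnitine translocase, had 24.8, 15.4, 13.1 and 23.99 FPKM in PKP2_het replicates 1 to 4, against 24.1, 27.1, 21.96 and 25.9 FPKM in WT replicates 1 to 4. Replicates 2 and 3 of PKP2_het were below every WT library, and the log2 fold change was -0.39 ± 0.20 (SE) with a limma adjusted p of 0.468, or -0.23 without PKP2_het replicate 3. CRAT, which transfers acetyl groups to carnitine, averaged 79.9 ± 19.4 FPKM in PKP2_het libraries and 99.8 ± 7.28 FPKM in WT libraries (SD, n = 4 each; limma adjusted p = 0.483), and its log2 fold change of -0.35 was -0.16 without PKP2_het replicate 3. SLC22A5, the carnitine transporter of the cell membrane, averaged 2.45 ± 0.396 FPKM in PKP2_het libraries and 2.53 ± 0.0375 FPKM in WT libraries; its annotated span overlaps that of IRF1 and 4 other genes, and how shared fragments or strand were counted is not given in the sources used here, so its value is uncertain.

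The pair that sets malonyl-CoA, the inhibitor of CPT1, had values on opposite sides of 0 with neither called. MLYCD, malonyl-CoA decarboxylase (gene 497060, chr6:4683386-4698698), had 21.98, 8.73, 9.57 and 17.9 FPKM in PKP2_het replicates 1 to 4, against 20.7, 23.7, 14.1 and 27.6 FPKM in WT replicates 1 to 4. Replicates 2 and 3 of PKP2_het and replicate 3 of WT were the low libraries, and the log2 fold change was -0.60 ± 0.30 (SE) with a limma adjusted p of 0.454, or -0.44 without PKP2_het replicate 3 and -0.40 without PKP2_het replicate 2. ACACB, the mitochondrial acetyl-CoA carboxylase, averaged 18.6 ± 2.05 FPKM in PKP2_het libraries and 16.6 ± 2.38 FPKM in WT libraries (SD, n = 4 each), with a log2 fold change of 0.16 ± 0.13 (SE) that turned negative when libraries were rescaled to equal FPKM sums. The ratio of ACACB to MLYCD FPKM was 0.923, 2.05, 1.67 and 1.13 in PKP2_het replicates 1 to 4, against 0.662, 0.675, 1.36 and 0.633 in WT replicates 1 to 4. It exceeded 1 in PKP2_het replicates 2, 3 and 4 and in WT replicate 3.

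Acyl-CoA dehydrogenases, which start each round of beta-oxidation on chains of different length, all had negative values and none was called. ACADM, for medium chains, had 245, 212, 139 and 289.7 FPKM in PKP2_het replicates 1 to 4, against 346, 281, 234 and 411 FPKM in WT replicates 1 to 4. WT replicates 1 and 4 exceeded every PKP2_het library, PKP2_het replicate 3 was the lowest of 8, and the log2 fold change was -0.54 ± 0.25 (SE) (limma adjusted p = 0.412), or -0.33 without that library. ACADVL, for very long chains, averaged 106 ± 17.6 FPKM in PKP2_het libraries and 124 ± 16.2 FPKM in WT libraries (SD, n = 4 each; log2 fold change -0.23 ± 0.15 (SE)). ACADS, for short chains, ranged over 51.7 to 60.2 FPKM in PKP2_het and 49.8 to 77.7 FPKM in WT, with a log2 fold change of -0.14 ± 0.14 (SE). ACADL, for long chains, averaged 108 ± 31.5 FPKM in PKP2_het libraries and 117 ± 10.1 FPKM in WT libraries, and its log2 fold change of -0.16 was 0.06 without PKP2_het replicate 3.

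No enzyme of the later steps was called. ECHS1, which hydrates the short enoyl-CoA, ranged over 245 to 289 FPKM in PKP2_het and 223 to 305 FPKM in WT, with a log2 fold change of -0.03 ± 0.14 (SE). HADHA and HADHB encode the subunits of the mitochondrial trifunctional protein and are divergent neighbours on chromosome 3 of Sscrofa11.1, at chr3:112753343-112797627 on the plus strand and chr3:112712894-112753121 on the minus strand, with 221 bases between them. HADHA had 265, 193, 156 and 247 FPKM in PKP2_het replicates 1 to 4, against 231, 210.4, 213 and 284 FPKM in WT replicates 1 to 4. HADHB had 308, 235, 167 and 301 FPKM in PKP2_het replicates 1 to 4, against 328, 267, 255 and 395 FPKM in WT replicates 1 to 4. Both were lowest in PKP2_het replicate 3, and their log2 fold changes were -0.14 ± 0.19 (SE) and -0.32 ± 0.23 (SE). Without that library HADHA was at -0.00246 and HADHB at -0.13. The ratio of HADHA to HADHB FPKM was 0.859, 0.822, 0.938 and 0.821 in PKP2_het replicates 1 to 4, against 0.704, 0.788, 0.837 and 0.720 in WT replicates 1 to 4, with PKP2_het replicate 3 the highest and the groups overlapping through WT replicate 3. HADH, the short-chain 3-hydroxyacyl-CoA dehydrogenase, ranged over 173 to 275 FPKM in PKP2_het and 232 to 293 FPKM in WT, with a log2 fold change of -0.11 ± 0.17 (SE). ACAA2, the 3-ketoacyl-CoA thiolase that ends a round, ranged over 205 to 300.4 FPKM in PKP2_het and 222 to 261 FPKM in WT, with 0.06 ± 0.16 (SE) on the same scale, a value that turned negative when libraries were rescaled to equal FPKM sums.

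Enzymes for unsaturated fatty acids and for electron transfer gave no call either. DECR1, the dienoyl-CoA reductase, was nearly even across WT and lowest in PKP2_het replicate 3, with 76.5, 61.8, 38.9 and 73.04 FPKM in PKP2_het replicates 1 to 4, against 64.4, 66.9, 66.9 and 69.2 FPKM in WT replicates 1 to 4. ECI2, an enoyl-CoA isomerase, averaged 92.1 ± 5.70 FPKM in PKP2_het libraries and 116 ± 27.4 FPKM in WT libraries (SD, n = 4 each), and here the WT libraries formed a high pair (replicates 2 and 3) and a pair close to the PKP2_het libraries, with replicate 1 inside their range and replicate 4 just above it. ECI1, the other isomerase, ranged over 142 to 207 FPKM in PKP2_het and 134 to 216 FPKM in WT, with a log2 fold change of 0.03 ± 0.18 (SE). Electrons from the dehydrogenases pass through the flavoprotein of ETFA and ETFB to ETFDH. The ETFA to ETFB ratio of FPKM was 0.961, 1.26, 0.544 and 0.986 in PKP2_het replicates 1 to 4, against 0.909, 0.827, 0.984 and 0.937 in WT replicates 1 to 4, so PKP2_het replicates 2 and 3 stood at opposite ends. ETFB alone was at 199 FPKM in PKP2_het replicate 3 and 115 FPKM in replicate 2. ETFA and ETFB had log2 fold changes of 0.00 ± 0.16 (SE) and 0.02 ± 0.17 (SE), and ETFDH, the electron acceptor of the inner membrane, ranged over 68.05 to 125 FPKM in PKP2_het and 96.8 to 141 FPKM in WT with -0.20 ± 0.20 (SE), or -0.03 without PKP2_het replicate 3.

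Among tested members, PDK4 differed most between libraries of 1 group. PDK4, the kinase that switches off pyruvate dehydrogenase and so favours fatty acid use (gene 100286778, chr9:75246956-75260134), had 71.9, 3.88, 5.88 and 36.9 FPKM in PKP2_het replicates 1 to 4, against 37.7, 50.6, 37.7 and 54.6 FPKM in WT replicates 1 to 4. PKP2_het spanned 18.5-fold and WT 1.45-fold, and PKP2_het replicates 2 and 3 lay far below all other libraries while replicate 1 was the highest of the 8. On the log2(FPKM + 1) scale, the standard deviation of PDK4 within PKP2_het was at the 99.9 percentile of all genes tested, and within WT at the 86.1 percentile. The group means were 29.6 ± 31.96 FPKM in PKP2_het libraries and 45.2 ± 8.74 FPKM in WT libraries (SD, n = 4 each), the log2 fold change was -1.38 ± 0.76 (SE) and the limma adjusted p 0.5002. Without PKP2_het replicate 3 these were -0.94 and 0.592. The log2 fold change was -0.77 without PKP2_het replicate 2 and -2.07 without PKP2_het replicate 1, so single libraries of this group set its size. The annotated span of PDK4 lies within that of ASB4 on the other strand, which averaged 2.86 FPKM over the 8 libraries.

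The other pyruvate dehydrogenase kinases varied less between PKP2_het libraries. PDK4 as a percentage of the FPKM of PDK1 to PDK4 was 53.8, 5.61, 15.95 and 34.6 in PKP2_het replicates 1 to 4, against 37.6, 39.6, 40.5 and 40.96 in WT replicates 1 to 4. WT libraries were within a narrow band, and PKP2_het libraries lay on both sides of it. PDK2, the kinase with the next highest level and named after its values were seen, had 40.7, 43.96, 20.5 and 42.7 FPKM in PKP2_het replicates 1 to 4, against 37.6, 43.8, 33.9 and 47.3 FPKM in WT replicates 1 to 4, and PDK1 had 15.5, 14.6, 8.10 and 19.6 FPKM in PKP2_het replicates 1 to 4, against 21.1, 28.1, 17.8 and 26.1 FPKM in WT replicates 1 to 4. For PDK1 the log2 fold change was -0.69 ± 0.24 (SE) with a limma adjusted p of 0.256.

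**Figure D3:**
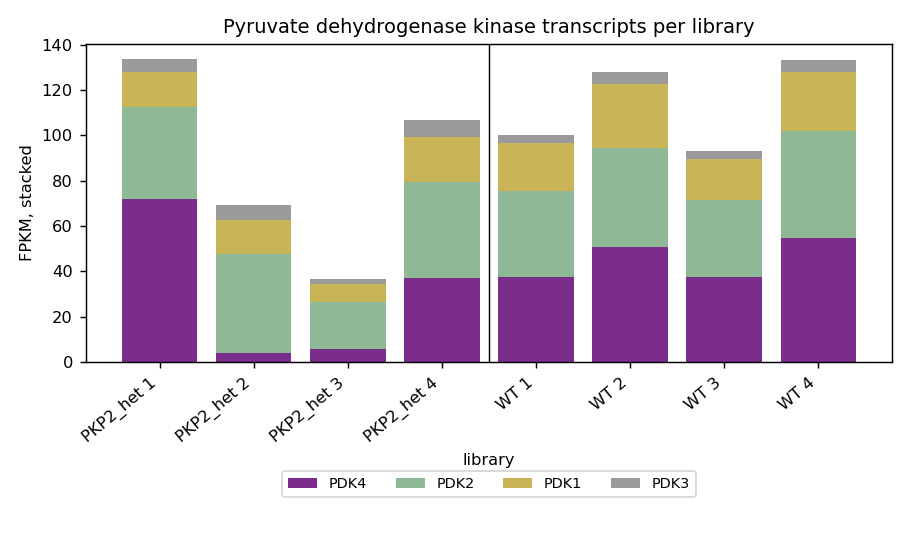
FPKM of the 4 pyruvate dehydrogenase kinase transcripts stacked per library, PKP2_het left of WT. The PDK4 part is 3.88 and 5.88 FPKM in PKP2_het replicates 2 and 3, and 37.7 to 54.6 FPKM in WT.

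ANGPTL4, a secreted inhibitor of lipoprotein lipase (gene 397628, chr2:70905767-70912892), had 7.68, 3.43, 6.91 and 8.58 FPKM in PKP2_het replicates 1 to 4, against 9.48, 10.8, 8.13 and 10.8 FPKM in WT replicates 1 to 4. PKP2_het replicate 2 was the lowest library, and only replicate 4 of PKP2_het reached the WT range. The log2 fold change was -0.55 ± 0.22 (SE) with a limma adjusted p of 0.343, and -0.58 with 0.281 without PKP2_het replicate 3. Without PKP2_het replicate 2, the lowest library, the log2 fold change was -0.30. UCP2, an uncoupling protein of the inner mitochondrial membrane, averaged 2.88 ± 0.732 FPKM in PKP2_het libraries and 2.55 ± 0.352 FPKM in WT libraries (SD, n = 4 each), with a log2 fold change of 0.12 ± 0.14 (SE) that also turned negative with equal FPKM sums. UCP3, its muscle relative, was below 1 FPKM in every library, and PKP2_het replicates 1 and 4 held 16 fragments each against 2 and 3 in replicates 2 and 3. The table has no gene named ACOT2, but a gene annotated as acyl-coenzyme A thioesterase 1-like (LOC110255331), whose protein annotation names human ACOT2, had 97.1, 77.5, 50.8 and 89.2 FPKM in PKP2_het replicates 1 to 4, against 76.9, 92.1, 79.4 and 91.6 FPKM in WT replicates 1 to 4. It is not counted among the members, and fragments can be shared with similar thioesterase genes beside it.

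**Figure D4:**
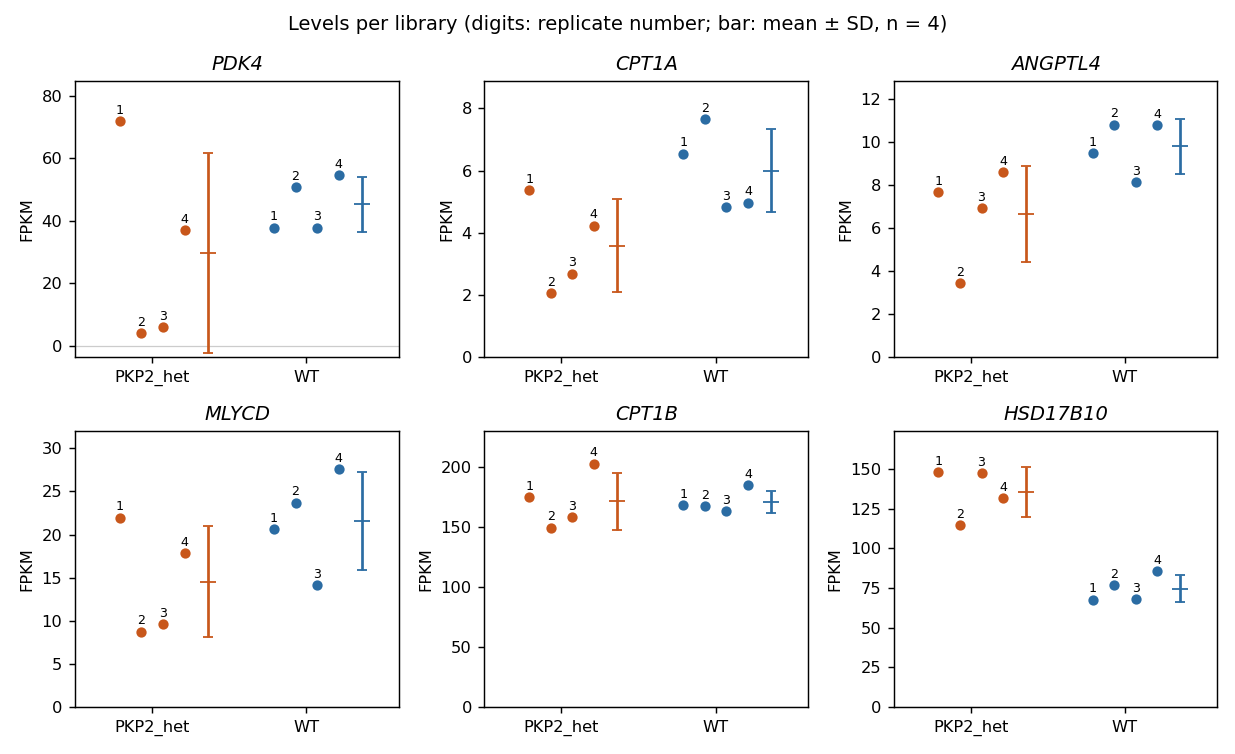
FPKM per library of PDK4, CPT1A, ANGPTL4, MLYCD, CPT1B and HSD17B10, PKP2_het left and WT right, with replicate numbers above the points and mean ± SD (n = 4) beside them. PKP2_het replicates 2 and 3 are the low pair for PDK4, CPT1A and MLYCD, CPT1B is even, and HSD17B10 is higher in all PKP2_het libraries than in any WT library.

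Many members were low in the same PKP2_het libraries, a pattern described after the values were seen. In 26 of 30 tested members the low pair of PKP2_het libraries was replicates 2 and 3, against 19.6% of all genes tested. The lowest single PKP2_het library was replicate 3 for 20 members and replicate 2 for 9, against 44.6% and 17.3% of all genes. Replicate 3 was the lowest of all 8 libraries for 16 members, against 36.3% of all genes. The members come from the same libraries and do not count as independent observations. WT libraries differed too. Without FABP3, the summed member FPKM was 2988 in WT replicate 3 and 3239 to 3819 in the other WT libraries. In PKP2_het this sum was 2758 and 2361 in replicates 2 and 3, and 3424 and 3429 in replicates 1 and 4. In replicate 3 the median member stood at 69.7% of the mean of the other PKP2_het libraries, against 93.4% for all genes. Longer genes stood lower on this measure, with a Spearman correlation between length and level across genes of -0.25 over the 30 members and -0.25 over 10755 genes; genes of 1 library are not independent, and the part of length in the members' values was not tested. PDK4 at 15.7% and ACSL1 at 34.96% were lowest on this measure among tested members, and ETFB at 135% was highest. Over the PKP2_het libraries 1 to 4 the summed cardiomyocyte markers were 42701, 33338, 46853 and 41553 FPKM and the summed fibroblast markers 396, 551, 271 and 322 FPKM, so replicate 2 had the lowest cardiomyocyte and the highest fibroblast sum and replicate 3 the reverse. These sums are carried by a few abundant transcripts, and single markers did not move together in replicate 3. Of the 10 cardiomyocyte markers, 5 were lowest of all 8 libraries there (MYH7, RYR2, PLN, ACTC1 and MYBPC3), with MYH7 at 50.9% and RYR2 at 48.3% of the mean of the other PKP2_het libraries. TNNC1 stood at 138% and TNNT2 at 144% on the same measure. The part of these differences in the members' values was not tested.

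**Figure D5:**
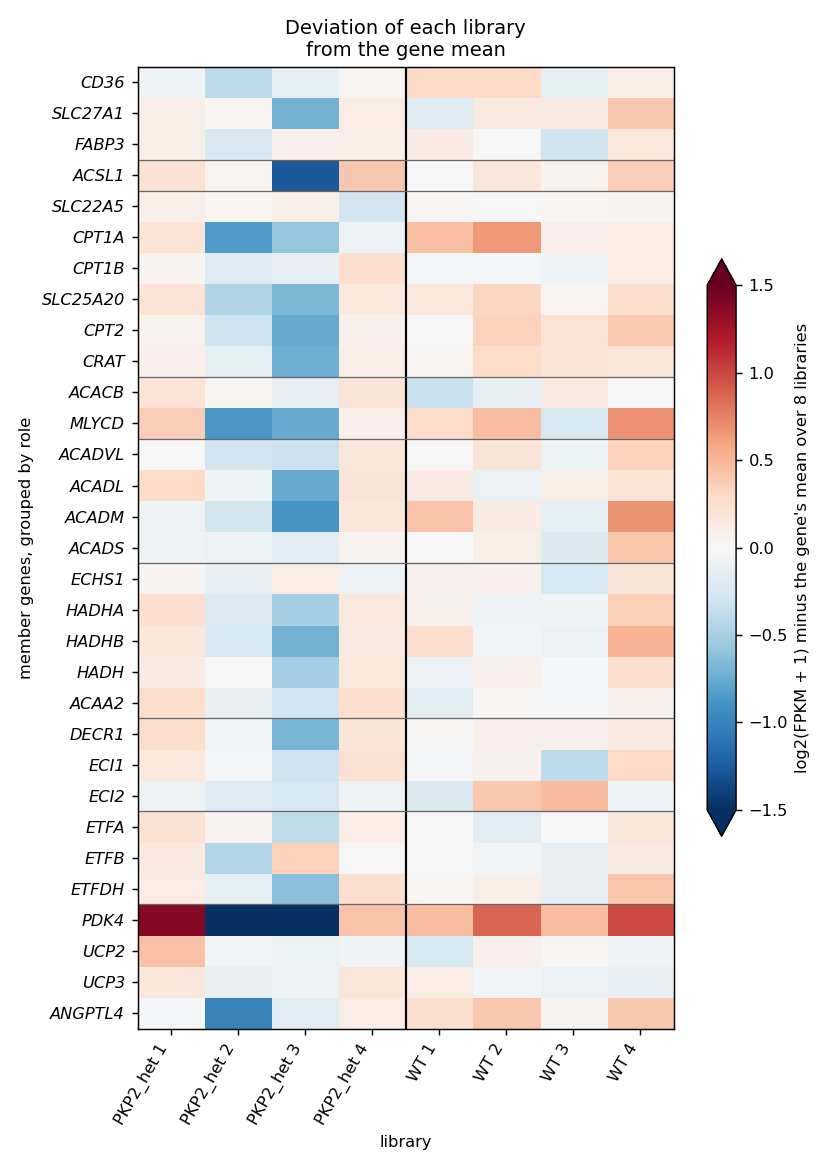
Log2(FPKM + 1) of each member in each library minus the gene's mean over the 8 libraries, PKP2_het left of WT, with members grouped by role and blue for values below the mean. PKP2_het replicates 2 and 3 are below the mean for most members, with PDK4 beyond the end of the colour scale, and the ETFB value of replicate 3 is above it.

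Other genes of fatty acid use were taken from 10 lists by role. Of 122 genes listed, 120 were in the table and 107 were tested. Of these 1 rose and 0 fell, against 1.15% of all genes called higher and 0.707% called lower. An unadjusted p under 0.05 was found for 7 toward higher levels (all genes: 6.88%) and for 11 toward lower levels (all genes: 5.96%). The groups did not overlap for 4 of the 107 toward higher levels (all genes: 4.86%), SLC25A29 among them. They did not overlap for 8 toward lower levels (all genes: 4.33%), ACLY and LMF1 among them. The median log2 fold change was -0.0592. Without PKP2_het replicate 3, 5 were called: HSD17B10, ACADSB, SLC25A29 and PRKAG3 as higher and EHHADH as lower, against 1.81% and 1.11% of all genes.

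HSD17B10 was the gene that rose. Its call did not hold under every alternative, and with libraries rescaled to equal FPKM sums the log2 fold change was 0.58 and the limma adjusted p 0.732. It encodes a mitochondrial 3-hydroxyacyl-CoA dehydrogenase that acts in isoleucine breakdown and is also a subunit of the enzyme that trims mitochondrial transfer RNA. HSD17B10 (gene 100524293, chrX:46218540-46220942) had 148, 115, 148 and 132 FPKM in PKP2_het replicates 1 to 4, against 67.8, 76.7, 68.3 and 85.9 FPKM in WT replicates 1 to 4. All PKP2_het libraries were above all WT libraries, by 1.82-fold in the means, and the log2 fold change was 0.85 ± 0.14 (SE) with a limma adjusted p of 0.0118. Its annotated span overlaps that of RIBC1, on the other strand, by 152 bases. RIBC1, named after its values were seen, was lower, at 0.689 ± 0.127 FPKM in PKP2_het libraries and 1.92 ± 0.367 FPKM in WT libraries (SD, n = 4 each; limma adjusted p = 0.00631). The nearby genes SMC1A and HUWE1 had log2 fold changes of -0.11 ± 0.11 (SE) and -0.24 ± 0.19 (SE) and were not called. The Y-annotated gene EIF1AY was present in every library, at 18.8 to 30.6 FPKM in PKP2_het and 19.8 to 25.2 FPKM in WT.

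Regulators of the pathway were not called. In the list of nuclear receptors and coactivators 0 of 13 tested genes passed, against 1.86% of all genes. At that share a list of this size may well hold no call. KLF15, a transcription factor of cardiac lipid use, had 3.11, 6.47, 4.98 and 3.91 FPKM in PKP2_het replicates 1 to 4, against 2.72, 3.21, 3.12 and 1.86 FPKM in WT replicates 1 to 4, with a log2 fold change of 0.57 ± 0.20 (SE) and a limma adjusted p of 0.235. PPARA, the PPAR receptor of oxidative tissue, was named after its values were seen. It had 9.92, 21.03, 6.56 and 18.2 FPKM in PKP2_het replicates 1 to 4, against 13.1, 12.9, 10.8 and 16.5 FPKM in WT replicates 1 to 4. Its highest level was in PKP2_het replicate 2, where PDK4 was lowest. Its lowest was in PKP2_het replicate 3, where PDK4 was also low at 5.88 FPKM. RXRA and LPIN1 had log2 fold changes of -0.24 ± 0.14 (SE) and -0.24 ± 0.15 (SE). Of 12 genes around AMP-activated kinase 0 passed, again against 1.86% of all genes. PRKAG3, a regulatory subunit known for its effect on muscle glycogen in pigs, had 17.96, 14.9, 11.5 and 14.4 FPKM in PKP2_het replicates 1 to 4, against 6.19, 9.90, 9.94 and 8.16 FPKM in WT replicates 1 to 4. The groups did not overlap for PRKAG3 (all genes, toward higher levels: 4.86%). Its log2 fold change was 0.72 ± 0.17 (SE) and its limma adjusted p 0.0789, or 0.0306 without PKP2_het replicate 3. ACLY and FASN, of fatty acid synthesis, had -0.15 ± 0.09 (SE) and 0.20 ± 0.12 (SE).

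Peroxisomal oxidation and ketone use, like other lists, held genes with separated groups but no call. Of 18 peroxisomal genes 2 were lower in all PKP2_het libraries than in any WT library, against 4.33% of all genes. These were EHHADH, the bifunctional enzyme, and PECR, an enoyl-CoA reductase. DECR2, a dienoyl-CoA reductase named after its values were seen, was the 1 gene with all PKP2_het libraries above WT (all genes: 4.86%), at 10.4 ± 2.87 FPKM in PKP2_het libraries and 7.73 ± 0.409 FPKM in WT libraries (SD, n = 4 each; limma adjusted p = 0.391). EHHADH had 6.69, 6.36, 1.77 and 6.96 FPKM in PKP2_het replicates 1 to 4, against 9.16, 11.5, 8.85 and 10.9 FPKM in WT replicates 1 to 4. Replicate 3 of PKP2_het was by far the lowest, and the limma adjusted p was 0.245, or 0.0351 without it. PECR averaged 11.02 ± 3.01 FPKM in PKP2_het libraries and 19.2 ± 3.93 FPKM in WT libraries (SD, n = 4 each; limma adjusted p = 0.145), and PEX11A, a peroxisome division protein, had a log2 fold change of -0.31 ± 0.14 (SE). In the ketone list, SLC16A1, a monocarboxylate carrier, had a log2 fold change of -0.56 ± 0.24 (SE) and a limma adjusted p of 0.360. Its groups were separated (all genes, toward lower levels: 4.33%). BDH1, which interconverts ketone bodies, had 0.26 ± 0.20 (SE).

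Carnitine synthesis, triglyceride turnover and the remaining lists are given by their leading members. TMLHE, the first enzyme of carnitine synthesis, had 5.71, 4.88, 3.07 and 4.56 FPKM in PKP2_het replicates 1 to 4, against 6.30, 8.43, 8.79 and 7.96 FPKM in WT replicates 1 to 4. Its groups were separated (all genes, toward lower levels: 4.33%), with a log2 fold change of -0.69 ± 0.16 (SE) and a limma adjusted p of 0.0792. BBOX1, the last enzyme of that route, had 0 fragments in all 8 libraries, and SHMT1 and ALDH9A1 had 0.52 ± 0.28 (SE) and 0.12 ± 0.11 (SE). Among 11 genes of triglyceride turnover, G0S2, an inhibitor of lipolysis, averaged 3.89 ± 1.27 FPKM in PKP2_het libraries and 1.77 ± 0.695 FPKM in WT libraries (SD, n = 4 each; limma adjusted p = 0.145). DGAT2, which completes triglyceride synthesis, and PLIN2, a lipid droplet coat protein, had log2 fold changes of 0.51 ± 0.19 (SE) and -0.65 ± 0.33 (SE). In the uptake list, CAV1 (caveolin), LMF1, which matures lipoprotein lipase, and DBI, an acyl-CoA binding protein, had -0.48 ± 0.17 (SE), -0.27 ± 0.11 (SE) and 0.34 ± 0.14 (SE). SLC25A29, a carrier of basic amino acids, averaged 11.1 ± 6.02 FPKM in PKP2_het libraries and 4.89 ± 0.203 FPKM in WT libraries, with 19.8 FPKM in PKP2_het replicate 3. ECHDC3, ACOT13, ACSS1 and ACSL4 had log2 fold changes of -0.62 ± 0.24 (SE), 0.26 ± 0.12 (SE), -0.37 ± 0.26 (SE) and -0.25 ± 0.19 (SE). Among 12 genes around pyruvate dehydrogenase, DLD and MPC2 had -0.34 ± 0.23 (SE) and 0.20 ± 0.14 (SE), and none was called (all genes: 1.86%).

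Markers of other cells varied between single libraries. FABP4, made by capillary endothelium and fat cells, had 16.1, 11.96, 86.7 and 62.1 FPKM in PKP2_het replicates 1 to 4, against 176, 115, 9.58 and 116 FPKM in WT replicates 1 to 4. Fat cell markers did not move one way: 3 of the 7 tested had a negative log2 fold change (all genes: 54.3%) and 0 were called (all genes: 1.86%). The 9 listed summed to 203 to 315 FPKM in PKP2_het and 160.5 to 305 FPKM in WT. CFD and FABP4 carried most of these sums and lay on opposite sides of 0, at 0.63 ± 0.18 (SE) and -1.10 ± 0.91 (SE) on the log2 scale. Similar sums therefore do not show an equal fat content. CFD (adipsin) ranged over 117 to 199 FPKM in PKP2_het and 93.4 to 121 FPKM in WT, AQP7, a glycerol channel, over 6.72 to 12.5 FPKM in PKP2_het and 10.1 to 16.2 FPKM in WT and PLIN4 over 10.7 to 23.1 FPKM in PKP2_het and 11.8 to 16.7 FPKM in WT. ADIPOQ and LEP, hormones of fat cells, were low, with ADIPOQ at 0.108 to 4.03 FPKM in PKP2_het and 0.0665 to 3.56 FPKM in WT and LEP at no more than 0.00836 FPKM in PKP2_het and 0 in every WT library. Atrial muscle markers were summed at 8.86 to 646 FPKM in PKP2_het and 6.002 to 1164 FPKM in WT, with PKP2_het replicate 1 and WT replicate 3 the highest of their groups at 646 and 1164 FPKM. Without FABP3, the summed member FPKM was 3424 in PKP2_het replicate 1, within a group range of 2361 to 3429. It was 2988 in WT replicate 3, the lowest of WT. PDK4, MLYCD and CD36 are examples taken from the members, a comparison that was not planned. PKP2_het replicate 1 had the highest PDK4 and MLYCD of its group, at 71.9 and 21.98 FPKM. WT replicate 3 had the lowest MLYCD and CD36 of its group, at 14.1 and 52.4 FPKM. Its PDK4, at 37.7 FPKM, was near the bottom of the WT range. The part of atrial tissue in those values was not tested. Macrophage markers were summed at 22.5 to 61.6 FPKM in PKP2_het and 40.8 to 56.4 FPKM in WT, smooth muscle and pericyte markers at 276 to 429.8 FPKM in PKP2_het and 284 to 427 FPKM in WT, and lymphocyte markers at 1.86 to 5.24 FPKM in PKP2_het and 4.64 to 5.86 FPKM in WT. LMOD1, a smooth muscle marker, and MYL1, of fast skeletal muscle, were called in opposite directions (all genes called: 1.86%). Their log2 fold changes were 0.57 ± 0.11 (SE) and -2.95 ± 0.57 (SE), with limma adjusted p of 0.0346 and 0.0328. No other listed marker was called. Under the 18 alternatives LMOD1 was called in 8 (adjusted p from 0.00354 to 0.732) and MYL1 in 9 (adjusted p from 0.000541 to 0.148). MYL1 was the only marker tested of the 7 listed for fast skeletal muscle, and the rest stayed below 1 FPKM in every library. Of these, ACTN3 averaged 0.281 FPKM over the PKP2_het libraries, against 0.0510 FPKM over the WT libraries. MYH1, MYH2, TNNI2 and TNNT3 averaged less in PKP2_het than in WT, and MYH4 was 0 throughout. A difference in skeletal muscle content was not tested.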

How the data were processed

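Per the labels' protocols, total RNA of right ventricular tissue was sequenced as 150 bp paired reads on a NovaSeq instrument, and HISAT2 2.0.5 aligned the reads. Not given in the sources used here were counter, annotation release, strand setting and normalisation. The authors deposited FPKM values per gene and library, 1 column for each of the 8 libraries, with groups from the titles; that titles mark separate animals is not stated. Multiplied by gene length, values fell on whole steps (100%, within 0.01), which gave fragments, and the library factors in the file equal median-of-ratios factors.

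The 10757 genes at 1 FPKM or more in 4 or more of the 8 libraries were compared as log2(FPKM + 1) in limma 3.58.1 (R 4.3.3), with the variance trend on, no term for replicate, two-sided p and Benjamini-Hochberg adjustment over all of them. Fold changes on this scale understate changes of low genes. The fit was tested on simulated data. Alternatives changed pseudocount, filter, scaling, test, weights, replicate block or left out 1 library.

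The members and lists were chosen with earlier results of these data known. Genes named are all members, the 3 genes with the smallest p of each other list and any called, and markers; genes and patterns named after their values were seen are marked, and a gene this rule selects is not reported here. No sequences are shown, since the reference used here held names and positions only.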

Additional observations from a re-analysis of the deposited data

Results flagged for a closer look

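Of 78 groups of 4 libraries examined (31 members and 8 ratios or sums of them, in each genotype), 6 had a library far from the other 3 (Dixon's ratio above its 95% critical value). By chance about 1 in 20 groups do so. SLC27A1 was at 11.5 FPKM in PKP2_het replicate 3, with 19.97 to 21.1 FPKM in the other PKP2_het libraries. FABP3 was at 864 FPKM in PKP2_het replicate 2, against 1079 to 1097 FPKM in the others of that group. SLC22A5 stood low in PKP2_het replicate 4, at 1.86 FPKM with the others at 2.55 to 2.69 FPKM. UCP2 stood high in PKP2_het replicate 1, at 3.97 FPKM with the others at 2.44 to 2.58 FPKM. FABP3 made up 31.4% of the summed member FPKM in PKP2_het replicate 3 and 23.9% to 24.2% in the other PKP2_het libraries. The ratio of ACACB to MLYCD was 1.36 in WT replicate 3 and 0.633 to 0.675 in the other WT libraries. PDK4, with the widest range in PKP2_het, did not meet this measure, because its libraries were spread and not 1 against 3.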

How the results depend on the processing

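No member was called in any of the 18 alternative settings, the fits without 1 library included; the lowest limma adjusted p of a member was 0.0589. Of 540 log2 fold changes of members under these settings 497 kept their sign, and the 43 that did not belong to 14 members. With libraries rescaled to equal FPKM sums (median over all genes -0.23), the log2 fold change was -0.26 for FABP3, -0.0980 for ACACB, -0.21 for ACAA2, -0.24 for ECI1, -0.27 for ETFA, -0.24 for ETFB and -0.0698 for UCP2. The median of members was then -0.45, with 95 genes called in all and 0 in the other lists of fatty acid use; there the HSD17B10 value was 0.58 (adjusted p = 0.732). With equal sums of nuclear genes it was -0.0689 for FABP3, -0.0186 for ACAA2, -0.0470 for ECI1, -0.0738 for ETFA and -0.0515 for ETFB. With voom it was -0.00123 for ETFA. With library quality weights it was -0.0837 for FABP3, 0.00714 for ACADL and -0.19 for ETFB, 659 genes were called in all, 9 of the other lists, and PKP2 was called at -0.57 (adjusted p = 0.0203). Leaving out 1 library at a time gave, over those 8 fits, ACAA2 -0.0202 to 0.16, ACADL -0.29 to 0.0625, ACSL1 -0.49 to 0.0699, CPT1B -0.0891 to 0.0566, DECR1 -0.25 to 0.0691, ECHS1 -0.12 to 0.0297, ECI1 -0.0971 to 0.14, ETFA -0.0746 to 0.13, ETFB -0.0887 to 0.17, FABP3 -0.0914 to 0.0899, HADH -0.18 to 0.0388, SLC22A5 -0.0778 to 0.0442 and UCP2 -0.00814 to 0.17. The counts over these fits were 115 to 314 genes called in all, 1 to 5 in the other lists, and 20 to 29 of 30 members negative; the median of members ran from -0.286 to -0.0733 and PKP2 from -0.77 to -0.48. Of the single libraries, PKP2_het replicates 1 and 3 left out gave 132 and 314 genes called, and WT replicates 2 and 4 left out gave 119 and 115. The cause of these changes was not tested. With a replicate block 105 genes and 0 of the other lists were called, against 200 and 1 without it, and HSD17B10 had a limma adjusted p of 0.0815. In their deviations from the group means, same-numbered libraries correlated at -0.39, 0.03, -0.23 and 0.20 for numbers 1 to 4. Only number 4 correlated best with its own number. With 4 libraries a group this cannot show whether same-numbered libraries were paired, and the labels do not say. With 4 libraries a group, the 95% interval of CPT1B still ran from -0.30 to 0.29, and UCP3, with 2 to 16 fragments, could not be compared.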

Other observations

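For the 3 members with the smallest unadjusted p, the tested genes with a symbol whose levels moved most alike within the groups were read from Pearson's r of the deviations from the group means over the 8 libraries. They were RBAK (r = 0.97), TPM1 (r = 0.95) and PHOSPHO2 (r = 0.94) for CPT1A, PRMT5 (r = 0.99), AAGAB (r = 0.99) and PSMD1 (r = 0.99) for CPT2 and HTRA2 (r = 0.96), ASRGL1 (r = 0.95) and LIPE (r = 0.95) for ANGPTL4. LIPE is hormone-sensitive lipase, which acts on stored fat. These are the highest of 10757 correlations each over 8 libraries that share PKP2_het replicate 3, and they are given as a description only.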
